A study of Homo sapiens with 6 samples.

Results

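The BCL2 family genes described here are MCL1, BCL2A1, BCL2L1, BIK, BAK1 and PMAIP1, taken by gene symbol from the annotation of a spotted 2-colour array. They were represented by 21 of 15246 probes, and all 6 genes belonged to the 7267 features that could be tested because no array lacked them (3932 of these had a symbol). The RNA came from Jurkat, an established line of human leukaemic T cells, given siRNA against RPS3 or siRNA against p65, each set against cells given nonspecific control siRNA. All cells, the controls included, were stimulated with anti-CD3/CD28 (dose given as 1 ug) for 1, 3 or 6 h, and each siRNA had 1 array per time, so that the 3 times of a siRNA stand as its replicates (n = 3) and their spread includes the effect of time. p65 is the NF-kB subunit encoded by RELA, and RPS3 is a protein of the small ribosomal subunit that is also known as a partner of p65 in NF-kB complexes. The values are log ratios, read as log2 of siRNA over control siRNA on the same array; neither the base nor the direction is stated. They show no level of a gene and cannot show whether the cells carried T-cell markers.

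Proteins of the BCL2 family decide whether the outer mitochondrial membrane stays intact. Survival members hold the pore-forming members BAK1 and BAX in check, and the BH3-only members block the survival proteins. NF-kB is known to raise survival members such as BCL2A1 and BCL2L1 in stimulated lymphocytes. MCL1, BCL2A1 and BCL2L1 are the survival genes of this set. BAK1 (a pore former) and the BH3-only genes BIK and PMAIP1 are the killers. PMAIP1 encodes NOXA, which binds chiefly MCL1 and BCL2A1.

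The genes lie on different chromosomes of the RefSeq assembly GRCh38.p14: MCL1 at chr1:150574558-150579610, BCL2A1 at chr15:79960892-79971196, BCL2L1 at chr20:31664452-31723963, BIK at chr22:43110750-43129712, BAK1 at chr6:33572552-33580276 and PMAIP1 at chr18:59899996-59904305. RefSeq start windows, 250 bases before to 50 bases after a gene start, were found for 4 of the 6 genes. The windows of BAK1, BCL2A1 and PMAIP1 are shown because these genes stood farthest from 0 in the mean of both 6 h arrays. BAK1 lay above 0 there, and BCL2A1 and PMAIP1 below it. Capitals mark matches, on either strand, to any of 4 motifs, and overlapping matches run together. The relaxed NF-kB motif searched for was GGG and CC with any 5 bases between them. The core of a cyclic AMP response element (CRE) was TGACGT. The motif of the TATA box was TATAAA, and that of the transcription factor AP-1 was TGANTCA, in which N is any base.
BAK1, chr6:33580227-33580526, minus strand: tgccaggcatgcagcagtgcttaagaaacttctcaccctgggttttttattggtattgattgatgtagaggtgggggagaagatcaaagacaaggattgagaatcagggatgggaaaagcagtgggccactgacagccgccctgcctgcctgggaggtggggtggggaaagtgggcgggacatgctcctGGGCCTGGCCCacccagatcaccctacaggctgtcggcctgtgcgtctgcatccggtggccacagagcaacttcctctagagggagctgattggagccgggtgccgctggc
BCL2A1, chr15:79971147-79971446, minus strand: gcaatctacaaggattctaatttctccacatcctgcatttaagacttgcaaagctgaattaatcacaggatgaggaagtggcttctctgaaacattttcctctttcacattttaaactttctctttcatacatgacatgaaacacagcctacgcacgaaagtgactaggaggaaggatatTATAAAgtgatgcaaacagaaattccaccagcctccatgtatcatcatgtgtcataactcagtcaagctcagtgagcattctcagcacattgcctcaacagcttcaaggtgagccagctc
PMAIP1, chr18:59899746-59900045, plus strand: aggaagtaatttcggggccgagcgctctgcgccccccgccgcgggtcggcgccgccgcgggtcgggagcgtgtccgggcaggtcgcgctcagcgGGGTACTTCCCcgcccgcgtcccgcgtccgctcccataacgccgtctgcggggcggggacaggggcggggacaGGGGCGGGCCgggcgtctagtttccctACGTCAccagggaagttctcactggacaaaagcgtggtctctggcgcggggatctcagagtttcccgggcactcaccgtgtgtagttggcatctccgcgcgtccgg
The BAK1 window held 2 overlapping matches to the relaxed NF-kB motif, at bases -61 to -52 and -60 to -51 counted from the gene start, with the start at 0. The PMAIP1 window held 3 such matches, 2 of them overlapping, and 1 CRE core at -56 to -51. The BCL2A1 window held a TATA box at -70 to -65 and none of the other motifs. The stricter NF-kB consensus matched in 0 of the 5 windows, which include 2 of BCL2L1. Of 35116 windows in the table, 58.7% held the relaxed motif, 5.91% the NF-kB consensus, 7.71% the AP-1 motif, 7.98% the CRE core and 11.5% the TATA box. The windows differed in base composition: G and C made up 58.7% of the BAK1 window, 41.0% of the BCL2A1 window and 71.3% of the PMAIP1 window.

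The direction of the ratios is likely rather than settled: the labels give Cy5 to the siRNA channel and Cy3 to the control, and name no dye swap. Blank cells made up 9.04%, 7.20% and 15.1% of the RPS3 siRNA arrays at 1, 3 and 6 h, and 5.40%, 10.1% and 14.8% of the p65 siRNA arrays. At 1, 3 and 6 h, RPS3 itself stood at -2.50, -2.53 and -1.44 with its own siRNA, against 0.11, 0.01 and 1.11 with p65 siRNA. RELA, the target of p65 siRNA, averaged -0.54 with RPS3 siRNA and -0.49 with p65 siRNA, and limma passed neither (adjusted p = 0.306 and 0.935). Its probes disagreed: 15848_1 lay between -1.28 and -0.94 with RPS3 siRNA and between -1.05 and -0.71 with p65 siRNA, while 28407_1 lay between -0.40 and 0.50 and between -0.13 and 0.06. The labels name the control of a given time alike on both siRNAs' arrays and do not say whether it was the same RNA, so values of both siRNAs at 1 time may share a control.

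**Figure D1:**
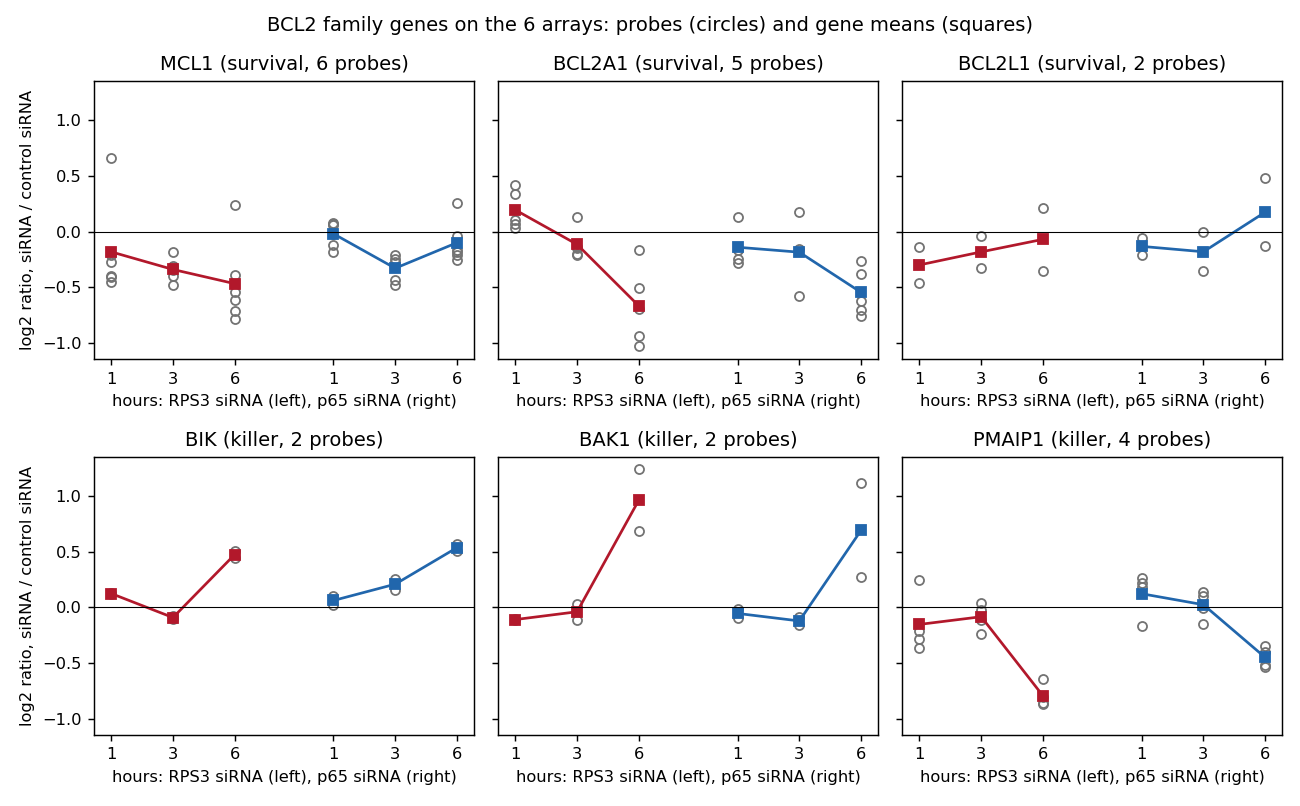
Log2 ratio of siRNA over control siRNA (vertical axis) at 1, 3 and 6 h (horizontal axis) for the 6 BCL2 family genes; circles are single probes, squares are gene means, with RPS3 siRNA in red on the left and p65 siRNA in blue on the right of each panel. BAK1 reached 0.96 and 0.69 at 6 h with RPS3 and p65 siRNA, and PMAIP1 -0.79 and -0.45.

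Among the survival genes, MCL1 lay below 0 on all 6 arrays. Averaged over its 6 probes (5 on the p65 siRNA array at 3 h), it read -0.18, -0.34 and -0.47 at 1, 3 and 6 h of RPS3 siRNA, and -0.02, -0.33 and -0.10 with p65 siRNA. On the RPS3 siRNA arrays, 5 of 6 probes lay below 0 at 1 h, 6 at 3 h and 5 at 6 h. Probe 26351_1, blank on the p65 siRNA array at 3 h, was the exception at 1 h (0.66), and probe 36123_1 at 6 h (0.24). Over the 5 complete probes, MCL1 read -0.35, -0.31 and -0.42 at 1, 3 and 6 h of RPS3 siRNA, with no steady order by time. Probe 36123_1 also read 0.26 at 6 h of p65 siRNA, where the other probes lay between -0.25 and -0.04. Probes of MCL1 thus disagreed in sign on both 6 h arrays. At 1 h of p65 siRNA, where the gene mean was close to 0, 3 probes lay below 0 and 3 above.

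BCL2A1, the family member most often named as an NF-kB target, read 0.19, -0.11 and -0.67 at 1, 3 and 6 h of RPS3 siRNA, and -0.14, -0.18 and -0.54 with p65 siRNA. Both 6 h arrays lay below the other 4, as they did for 19.1% of all features. At 6 h all 5 probes were negative, from -1.03 to -0.16 with RPS3 siRNA and from -0.76 to -0.27 with p65 siRNA. At 1 h of RPS3 siRNA all 5 probes were positive, from 0.04 to 0.42. At 3 h of p65 siRNA only 3 probes had a value, and these ran from -0.57 to 0.18.

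BCL2L1 encodes the survival protein BCL-XL and, by alternative splicing, the shorter BCL-XS, which promotes death. It read -0.30, -0.18 and -0.07 at 1, 3 and 6 h of RPS3 siRNA, and -0.13, -0.18 and 0.18 with p65 siRNA. Its probes parted at 6 h: probe 16454_1 read 0.21 with RPS3 siRNA and 0.48 with p65 siRNA, while probe 24267_1 read -0.35 and -0.13. At 1 and 3 h both probes were negative on all 4 arrays, with probe 16454_1 the lower (-0.46 to -0.21) and probe 24267_1 between -0.14 and -0.01. The transcript form that each probe detects is not given in the sources used here.

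Among the killers, BAK1 had the widest range. It read -0.11, -0.04 and 0.96 at 1, 3 and 6 h of RPS3 siRNA, and -0.05, -0.12 and 0.69 with p65 siRNA. Both 6 h arrays lay above the earlier arrays, as they did for 22.4% of all features, and the earlier arrays all lay just below 0. Probe 16550_1 read 1.24 and 1.11 at 6 h with RPS3 and p65 siRNA, and probe 28705_1 read 0.69 and 0.27. Among the 7267 features BAK1 ranked 200 from the top on the RPS3 siRNA array at 6 h and 288 on the p65 siRNA array at 6 h. Were the direction of the ratios turned, these ranks would be 7068 and 6980.

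BIK, which encodes a BH3-only protein of the endoplasmic reticulum, read 0.12, -0.09 and 0.47 at 1, 3 and 6 h of RPS3 siRNA, and 0.06, 0.21 and 0.54 with p65 siRNA. It was above 0 on 5 of 6 arrays, and its 2 probes had the same sign on every array. PMAIP1 went the other way. It read -0.15, -0.08 and -0.79 at 1, 3 and 6 h of RPS3 siRNA, and 0.12, 0.02 and -0.45 with p65 siRNA. All 4 of its probes were below 0 on both 6 h arrays, from -0.87 to -0.64 with RPS3 siRNA and from -0.53 to -0.35 with p65 siRNA. PMAIP1 ranked 7182 of 7267 features from the top at 6 h of RPS3 siRNA and 7052 at 6 h of p65 siRNA, near the bottom of both arrays; with the direction turned, the ranks would be 86 and 216.

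The comparison of RPS3 siRNA with control siRNA asked whether these genes depended on RPS3 after stimulation. MCL1 averaged -0.33 ± 0.14 (SD, n = 3) and PMAIP1 -0.34 ± 0.39, both below 0 on all 3 arrays, as was BCL2L1 at -0.18 ± 0.11. BCL2A1 averaged -0.20 ± 0.44, BAK1 0.27 ± 0.60 and BIK 0.17 ± 0.29, with signs that differed between times. None of the 6 passed limma's test at an adjusted p under 0.05, which called 0 of 7267 features (0%). RPS3, the silenced gene, averaged -2.16 and did not pass this limma test either (adjusted p = 0.0993). A gene that did not pass is therefore not shown to be unchanged. MCL1 had an unadjusted p of 0.0212 and an adjusted p of 0.513; an unadjusted p under 0.05 was met by 8.75% of all features and by 1 of the 6 genes. The other adjusted p-values ran from 0.635 for PMAIP1 to 0.773 for BCL2A1. Below 0 on all 3 arrays were 3 of 6 genes, against 15.5% of all features, and above 0 on all 3 were 0 of 6, against 16.2%. The RPS3 siRNA 6 h array set the sign of BCL2A1 and BAK1, whose means without it were 0.04 and -0.07. The PMAIP1 mean was -0.12 without it and the BIK mean 0.016.

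With each probe tested alone over 10721 probes, 4 of the 5 complete MCL1 probes averaged -0.51 to -0.32 with RPS3 siRNA. Their unadjusted p-values lay between 0.0047 and 0.0237, and their adjusted p-values between 0.349 and 0.443. The remaining MCL1 probe, 36123_1, averaged -0.10 (adjusted p = 0.879). No other survival or killer probe but PMAIP1 probe 19236_1 (-0.47, unadjusted p = 0.0194, adjusted p = 0.431) had an unadjusted p under 0.05 in this comparison, a level met by 9.52% of all probes.

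The comparison of p65 siRNA with control siRNA asked the same of p65. BCL2A1 averaged -0.29 ± 0.22 and MCL1 -0.15 ± 0.16 (SD, n = 3), both below 0 on all 3 arrays, as were 9.66% of all features. At 1 h MCL1 read only -0.02. BIK averaged 0.27 ± 0.24 and was above 0 on all 3, as were 13.2% of all features. BCL2L1 (-0.05 ± 0.19), BAK1 (0.17 ± 0.45) and PMAIP1 (-0.10 ± 0.31) changed sign between times. None passed: limma called 0 of 7267 features (0%), and the adjusted p-values of the 6 genes ran from 0.935 for BCL2A1 and BIK to 0.984 for BCL2L1. At an unadjusted p under 0.05 stood 0 of the 6 genes, against 4.95% of all features. Leaving out the p65 siRNA 6 h array turned BAK1 to -0.09 and PMAIP1 to 0.07, and took BIK to 0.13 and BCL2A1 to -0.16. The MCL1 mean was -0.06 without the 3 h array, and that of BCL2L1 was 0.02.

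**Figure D2:**
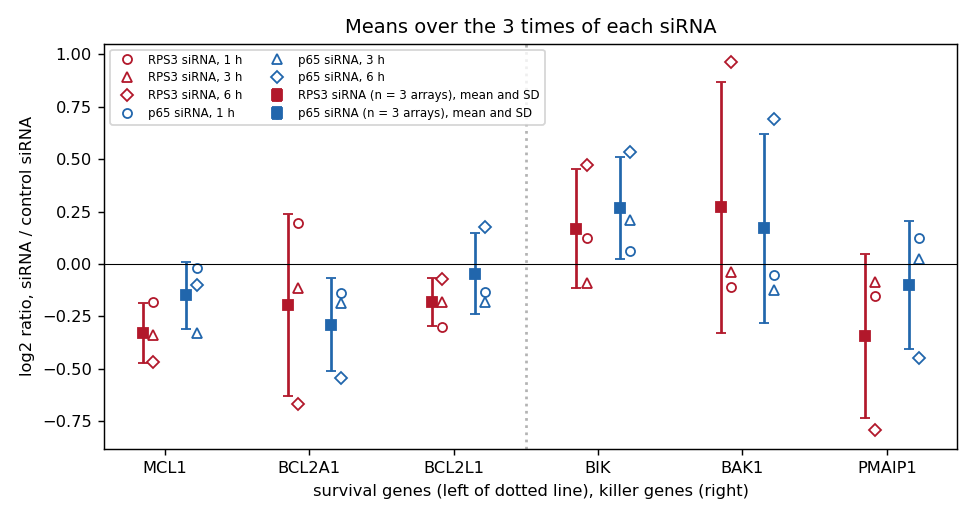
Mean log2 ratio of siRNA over control siRNA (vertical axis) for each gene, RPS3 siRNA in red left of p65 siRNA in blue; bars are the SD over 3 arrays and open symbols the single arrays (circle 1 h, triangle 3 h, diamond 6 h). The 6 h arrays are the outlying ones for BAK1 and PMAIP1, as in the means without them of -0.07 and -0.12 with RPS3 siRNA.

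Set directly against each other, the siRNAs gave differences of which none passed. RPS3 siRNA minus p65 siRNA was -0.24 ± 0.12 for PMAIP1, -0.18 ± 0.18 for MCL1 and -0.14 ± 0.12 for BCL2L1 (SD over 3 times), each below 0 at all times, as were 15.9% of all features. Matched by time, the PMAIP1 difference was -0.28, -0.11 and -0.34 at 1, 3 and 6 h, and without both 6 h arrays it was -0.19. Leaving out 1 array makes the times of the siRNAs unequal, so that a change with time enters the difference. The PMAIP1 difference then ran from -0.42 (without the p65 siRNA 6 h array) to -0.0175 (without the RPS3 siRNA 6 h array). That of BCL2L1 ran from -0.20 (without p65 siRNA at 3 h) to -0.0268 (without p65 siRNA at 6 h), and that of MCL1 from -0.27 (without p65 siRNA at 3 h) to -0.11 (without RPS3 siRNA at 6 h). BCL2A1 differed by 0.09 ± 0.23, BAK1 by 0.10 ± 0.16 and BIK by -0.10 ± 0.18. At an unadjusted p under 0.05 were 0 of the 6 genes, a level met by 2.55% of all features. limma gave an adjusted p of 0.9996 for all 6 and called 0 of 7267 features (0%). With the time point as a block the adjusted p-values of the 6 differences ran from 0.782 to 0.928. Identity numbers in the labels form an earlier series, with the RPS3 siRNA 3 h and p65 siRNA 1 h arrays, and a later series with the other 4. Over all values, the earlier series had SDs of 0.26 and 0.29 and highest values of 1.57 and 1.12, against SDs of 0.37 to 0.51 and highest values of 6.72 to 9.52 in the later series. The PMAIP1 difference was -0.21 within the earlier series and -0.26 within the later, and that of MCL1 was -0.32 and -0.11, although the times of the siRNAs are unequal within a series. Over all 6 arrays MCL1 averaged -0.24 ± 0.17 (SD, n = 6; unadjusted p = 0.0188, adjusted p = 0.384). It lay below 0 on 6 of 6 arrays, as did 3.18% of all features, though at 1 h of p65 siRNA it read only -0.02. Above 0 on every array were 0 of the 6 genes, against 4.35%.

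A pattern by time was seen in most of these genes. The 6 h arrays did not overlap the 1 h and 3 h arrays for 5 of the 6 genes. BAK1, BIK and BCL2L1 lay above and BCL2A1 and PMAIP1 below, while MCL1 overlapped. Such separation was common: it held for 41.5% of all features, 22.4% above and 19.1% below. With RPS3 siRNA alone, the 6 h value was above both earlier values for BAK1, BIK and BCL2L1 (39.4% of all features) and below them for MCL1, BCL2A1 and PMAIP1 (39.5%). With p65 siRNA alone it was above for the same 3 genes (35.8%), below for BCL2A1 and PMAIP1 (35.2%) and between them for MCL1. The slope per hour, with the siRNA in the fit, was 0.19 ± 0.04 (SE) for BAK1, 0.09 ± 0.04 for BIK, 0.06 ± 0.03 for BCL2L1, -0.03 ± 0.04 for MCL1, -0.13 ± 0.04 for BCL2A1 and -0.13 ± 0.04 for PMAIP1. None passed, with adjusted p-values of 0.101 for BAK1, 0.113 for BCL2A1 and 0.120 for PMAIP1, and limma called 0 of 7267 features (0%). At an unadjusted p under 0.05 stood 4 of the 6 genes, against 23.4% of all features.

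Because the earlier arrays lay close together, the 6 h arrays were also set against the 1 h and 3 h arrays in a fit chosen after the data were seen. BAK1 averaged 0.83 ± 0.19 at 6 h (SD, n = 2) and -0.08 ± 0.04 earlier (n = 4), a difference of 0.91 ± 0.13 (SE) or 1.88-fold, and it rose at 6 h (limma adjusted p = 0.01001). PMAIP1 averaged -0.62 ± 0.24 at 6 h and -0.02 ± 0.12 earlier, and it fell by 0.60 ± 0.13 (adjusted p = 0.0315). BIK averaged 0.50 ± 0.04 at 6 h and 0.08 ± 0.13 earlier (difference 0.43, adjusted p = 0.0828). BCL2A1 averaged -0.61 ± 0.09 at 6 h and -0.06 ± 0.17 earlier (difference -0.54, adjusted p = 0.0623). BCL2L1 differed by 0.25 (adjusted p = 0.228) and MCL1 by -0.07 (adjusted p = 0.807). This fit called 746 of 7267 features (10.3%), 8.34% higher and 1.93% lower at 6 h.

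The call on BAK1 was lost without the RPS3 siRNA 6 h array (difference 0.78, adjusted p = 0.233) or the p65 siRNA 6 h array (1.04, adjusted p = 0.102), where only 1 array is left at 6 h. That on PMAIP1 was lost without either 6 h array (adjusted p = 0.408 and 0.232) and without the RPS3 siRNA 1 h (0.0673) or 3 h array (0.0951). Both 6 h arrays belong to the later ID series, while the earlier series, with its narrower spread, gave 2 of the 4 arrays at 1 and 3 h. Within its 4 arrays BAK1 differed by 0.94 (adjusted p = 0.0276) and PMAIP1 by -0.56 (adjusted p = 0.0712). The 6 h arrays also had the most blank cells, and the part of this in the result was not tested. Nor can a change in the control cells at 6 h be told apart from a change in the siRNA cells, since the ratio holds both.

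By probe, the 6 h difference was 1.26 and 0.56 for the BAK1 probes (adjusted p = 0.0023 and 0.0477), so both passed. All 4 PMAIP1 probes lay between -0.78 and -0.53, and 3 of them passed. The 3 complete BCL2A1 probes lay between -0.78 and -0.49, and 28638_1 passed (adjusted p = 0.0450). BCL2L1 probe 16454_1 rose by 0.68 (adjusted p = 0.0215) while probe 24267_1 read -0.18 (adjusted p = 0.396), so the gene mean of 0.25 hides opposite readings. MCL1 probe 36123_1 differed by 0.50 (adjusted p = 0.0508), where the other 4 complete probes lay between -0.30 and -0.06. In this fit 12.2% of 10721 probes passed.

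**Figure D3:**
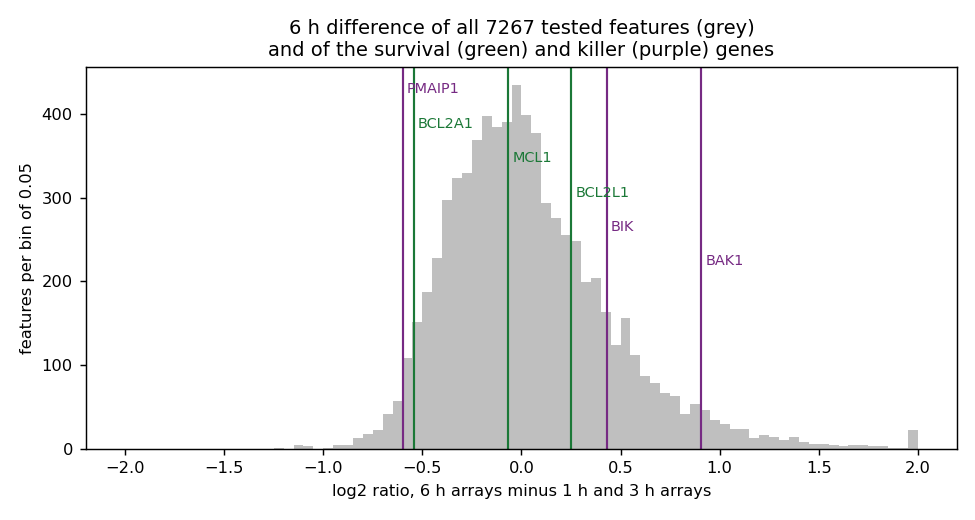
Number of features (vertical axis, bins of 0.05) by the log2 ratio of the 6 h arrays minus the 1 h and 3 h arrays (horizontal axis, values beyond -2 or 2 drawn in the end bins); grey bars are all 7267 tested features, lines the survival genes (green) and killers (purple). BAK1 stands at 0.91 and PMAIP1 at -0.60, while MCL1 lies near 0 at -0.07.

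As classes, the survival genes averaged -0.10, -0.21 and -0.40 at 1, 3 and 6 h of RPS3 siRNA, and the killers -0.05, -0.07 and 0.21. With p65 siRNA the survival genes averaged -0.10, -0.23 and -0.16, and the killers 0.04, 0.04 and 0.26. Survival minus killers was below 0 on each of the 6 arrays, from -0.05 at 1 h to -0.61 at 6 h of RPS3 siRNA and from -0.14 to -0.42 with p65 siRNA. The class means hide opposite members at 6 h, where the lowest killer (PMAIP1, -0.79 and -0.45 with RPS3 and p65 siRNA) lay under the highest survival gene (BCL2L1, -0.07 and 0.18). BAK1 was the highest killer there (0.96 and 0.69), above BIK (0.47 and 0.54), and weighs most in the killer means. The other killers, BIK and PMAIP1, lay on opposite sides of 0 at 6 h, so the widening of the gap there rests mostly on BAK1. The gap between the classes without BAK1 was not tested. BAK1 minus BCL2A1, the widest gap between the classes at 6 h, was 1.63 and 1.24 at 6 h with RPS3 and p65 siRNA, and between -0.30 and 0.09 on the earlier arrays. The pair was picked for its 6 h gap, so that choice favours the contrast with the earlier arrays. These class values carry no test, since the genes were grouped with earlier results of the data known.

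**Figure D4:**
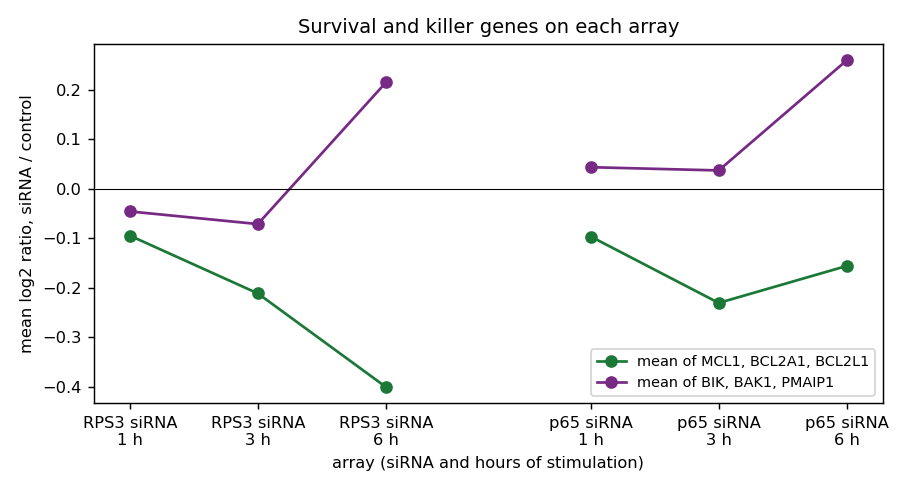
Mean log2 ratio of siRNA over control siRNA (vertical axis) of the 3 survival genes (green) and the 3 killers (purple) on each array (horizontal axis), RPS3 siRNA left of p65 siRNA. The classes lie 0.61 and 0.42 apart at 6 h of RPS3 and p65 siRNA, and 0.27 or less apart on the earlier arrays. At 6 h the killers themselves lie far apart, with BAK1 highest (0.96 and 0.69) and PMAIP1 lowest (-0.79 and -0.45). The widening of the gap at 6 h rests mostly on BAK1.

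Of the other BCL2 family genes, 11 of 20 listed were tested, and 0 passed in either siRNA comparison; limma called 0 of all features there. Their median was 0.03 with RPS3 siRNA and 0.03 with p65 siRNA, beside 0.01 and 0.02 over all features. BNIP3L, a BH3-only-like protein that marks mitochondria for removal, averaged -0.48 ± 0.28 with RPS3 siRNA (unadjusted p = 0.0059, adjusted p = 0.373). Its relative BNIP3 averaged 0.25 ± 0.24 with p65 siRNA (adjusted p = 0.935). At 6 h, the killer BOK stood above the earlier arrays (0.99 and 0.35 with RPS3 and p65 siRNA), as did the BH3-only gene BAD (0.35 and 0.12) and BNIP1 (0.55 and 0.19). BNIP2 stood below (-0.45 and -0.38), and the other 7 overlapped, beside 22.4% above and 19.1% below over all features. BAX, the partner of BAK1 in pore formation, read 0.26 and -0.03 at 6 h with RPS3 and p65 siRNA, where BAK1 read 0.96 and 0.69.

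The list of NF-kB-linked survival genes outside the family also holds genes of the NF-kB pathway itself, such as NFKBIA, NFKB2 and REL. Of its 11 tested members, 9 were below 0 with each siRNA. Over all features, 47.1% and 45.3% were below 0 with RPS3 and p65 siRNA. The median of the list was -0.08 with RPS3 siRNA and -0.19 with p65 siRNA, and 0 passed. TNFAIP3, whose product A20 restrains NF-kB, averaged -0.64 ± 0.32 with RPS3 siRNA and -1.04 ± 0.40 with p65 siRNA (adjusted p = 0.373 and 0.624). NFKBIA, which encodes IkB-alpha, averaged -0.60 ± 0.28 and -0.75 ± 0.27 (adjusted p = 0.360 and 0.935). Both were nearer 0 at 6 h than at 1 h: NFKBIA read -0.91 at 1 h and -0.37 at 6 h of RPS3 siRNA. BCL2A1 ran the other way on those arrays, with 0.19 at 1 h and -0.67 at 6 h. TRAF1, an adaptor of TNF receptors, averaged -0.32 ± 0.08 with RPS3 siRNA (adjusted p = 0.513). XIAP, an inhibitor of caspases, lay above 0 on all 3 RPS3 siRNA arrays (0.26 ± 0.17, adjusted p = 0.698) and read 0.83 at 6 h of p65 siRNA. TNFAIP8 averaged -0.37 ± 0.24 and NFKB2 -0.29 ± 0.11 with p65 siRNA (adjusted p = 0.935 for each).

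Genes of the mitochondrial death pathway downstream of BAX and BAK1 had 7 of 17 members tested, with medians of -0.05 and -0.08 with RPS3 and p65 siRNA and 0 passing. CASP9, the initiator caspase of that pathway, averaged 0.32 ± 0.25 with RPS3 siRNA (adjusted p = 0.549). CYCS, which encodes cytochrome c, and APAF1, its partner in caspase activation, stood below the earlier arrays at 6 h, 2 of the 7 beside 19.1% of all features. CYCS read -0.47 and -0.44 there with RPS3 and p65 siRNA, and APAF1 -0.25 and -0.34. BIRC5, which encodes the caspase inhibitor survivin, was the 1 gene of the 7 above the earlier arrays, beside 22.4% of all features, and read 0.26 and 0.56. OPA1 averaged 0.13 with RPS3 siRNA, and with p65 siRNA AIFM1 averaged 0.14 and APAF1 -0.13 (adjusted p = 0.781, 0.936 and 0.938). Genes of p53 and stress responses upstream of BH3-only genes had 13 of 20 members tested and medians of 0.01 and 0.04, with 0 passing. FAS, a death receptor, averaged -0.50 ± 0.24 with RPS3 siRNA (adjusted p = 0.422) and FOXO1 -0.30 ± 0.19 with p65 siRNA (adjusted p = 0.935). At 6 h 5 of these 13 stood above the earlier arrays, among them ATF4 (0.53 on both) and MDM2 (0.56 and 0.30), and 1 (FAS) stood below, beside 22.4% and 19.1% of all features. ATF3 (-0.12) and DDIT3 (0.06) with RPS3 siRNA, and TRIB3 (0.20), TP53I3 (0.15) and TNFRSF10B (0.10) with p65 siRNA, also kept 1 sign on all 3 arrays, with adjusted p-values from 0.765 (ATF3) to 0.946 (TNFRSF10B).

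Genes for turnover of MCL1 protein, with 7 of 11 tested, had medians of -0.03 and 0.06 with RPS3 and p65 siRNA and 0 passing. At 6 h 4 of the 7 stood above the earlier arrays, against 22.4% of all features. They were USP9X, a deubiquitinase that spares MCL1 (0.48 and 0.22), BTRC (0.80 and 0.71), GSK3B (0.48 and 0.46) and MAPK3 (0.19 and 0.29). BTRC averaged 0.29 with RPS3 siRNA, and CDC20 averaged 0.13 and GSK3A 0.06 with p65 siRNA (adjusted p = 0.736, 0.946 and 0.975). T-cell markers stood apart at 6 h as well: 7 of 10 stood above the earlier arrays and 1 below, beside 22.4% and 19.1% of all features, and their median was 0.52 and 0.29 at 6 h with RPS3 and p65 siRNA. On the earlier arrays it lay between -0.23 and -0.01. CD2 averaged 0.46, CD3D 0.20 and CD3G -0.06 with RPS3 siRNA, and LCK 0.35 and CD3D 0.13 with p65 siRNA (adjusted p from 0.349 for CD2 to 0.938). Of 5 B-cell and myeloid markers tested, 0 stood above and 1 below, and their median was -0.05 and 0.04 at 6 h. CD14 averaged -0.36 and MS4A1 0.24 with RPS3 siRNA, and CD79A 0.14 with p65 siRNA (adjusted p = 0.569, 0.635 and 0.936). The part of these markers in the 6 h pattern of the BCL2 family genes was not tested.

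The genes most like each member were sought over the 6 arrays by Pearson correlation among named genes with an SD of at least 0.2. For BAK1 they were CCNE1 (r = 1.00 after rounding), VAMP5 (0.9985) and PPP1CA (0.9982), and 374 of 2459 genes reached 0.9. PMAIP1 was most like TXN (0.9960), GNG10 (0.9953) and DCK (0.9941), with 157 genes at 0.9 or more. BCL2A1 was most like HESX1 (0.9905), FZD7 (0.9858) and GPALPP1 (0.9795), with 61. BIK was most like LHFPL2 (0.9846), MAPK3 (0.9820) and MIF (0.9705), with 77, and BCL2L1 like PML (0.9869), AURKB (0.9834) and PPEF2 (0.9775), with 65. MCL1 had 4 such genes and was most like KIF20B (0.9265), POLQ (0.9157) and CDCA2 (0.9149). The ratios of KIF20B, POLQ and CDCA2 lay below 0 on all 3 RPS3 siRNA arrays and at 3 and 6 h of p65 siRNA. The root mean square difference from the member was 0.05 for VAMP5 and 0.07 for LHFPL2, while KIF20B was 0.32 from MCL1. The 6 points share arrays and may share controls, and with 6 points high correlations are common, so these values only describe likeness.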

How the data were processed

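Gene expression was measured on 6 arrays, 3 per siRNA. The deposited values are log ratios of both channels per probe, read here as log2; the authors' log base, image analysis, background correction, blank rule and normalization are not given in the sources used here. If the base were natural, each size would be larger on the log2 scale. How far each spot stood above background cannot be seen, and precision is set by how few arrays there are.

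The median of each array was subtracted, and the probes that carry the same symbol were then averaged per array. The annotation gave 1 symbol for 10169 probes (4604 symbols), several for 4 and none for 5073; 10128 matched a current record and 0 changed symbol. Of the 21 member probes, 18 had values on all 6 arrays, and the others enter the gene mean where present. limma 3.58.1 in R 4.3.3 (lmFit, eBayes) was fitted over 7267 features, with Benjamini-Hochberg adjustment and a threshold of 0.05. It tested each siRNA against 0, their difference, all 6 arrays and the slope per hour. In tests against 0, variation of the controls enters only through the spread of the ratios and cannot be told apart from that of the siRNA cells. Any dye bias remains in these tests. If both siRNAs at 1 time share a control, their arrays are not independent. The labels do not state separate cultures; the p-values therefore reflect variation among these arrays alone, which may be technical. The code was tested on simulated data.

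Named from each gene list were, per siRNA, up to 4 genes with the largest mean among those of 1 sign on its 3 arrays; genes named for their 6 h values were chosen after these were seen, as were the motifs. The members and lists were chosen with earlier results of these data known.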

Additional observations from a re-analysis of the deposited data

Results flagged for a closer look

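BAK1 drew attention because its ratio had opposite signs by time: both 6 h arrays were above 0, with a mean log2 ratio of 0.83, and all 4 arrays at 1 and 3 h were below 0, with a mean of -0.08. The difference itself was tested in a fit chosen after the data were seen (0.91, limma adjusted p = 0.01001), and it did not pass as a slope per hour (adjusted p = 0.101). Both BAK1 probes had the same directions at 6 h, while at 3 h of RPS3 siRNA probe 28705_1 read 0.03.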

How the results depend on the processing

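In the siRNA comparisons and over all arrays, no member passed under any alternative run; for the slope per hour some did. Array quality weights, whose estimation stopped before full convergence, made 4 slopes pass: BAK1 (0.23), BIK (0.11), BCL2A1 (-0.14) and PMAIP1 (-0.15). Leaving out the p65 siRNA 1 h array made BAK1 (0.24, adjusted p = 0.0331) and BCL2A1 (-0.16, adjusted p = 0.0495) pass. Signs turned as follows, and the cause was not tested beyond the arrays left out. Without both 6 h arrays, BAK1 read -0.0745 with RPS3 siRNA, -0.0883 with p65 siRNA and -0.0814 over all arrays, BCL2A1 read 0.040 with RPS3 siRNA, PMAIP1 0.073 with p65 siRNA, and the BIK slope was -0.0173. With array quality weights, BIK was -0.0079 with RPS3 siRNA and the BAK1 difference between siRNAs was -0.10.

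Leaving out 1 array gave ranges of -0.39 to 0.040 for BCL2A1 and -0.0745 to 0.46 for BAK1 with RPS3 siRNA. With p65 siRNA they were -0.16 to 0.0215 for BCL2L1, -0.0883 to 0.32 for BAK1 and -0.21 to 0.073 for PMAIP1. For RPS3 minus p65 siRNA they were -0.25 to 0.36 for BAK1, -0.10 to 0.33 for BCL2A1 and -0.25 to 0.034 for BIK. In that comparison the times of the siRNAs become unequal when 1 array is left out, so a change with time enters these ranges. For the slope they were 0.14 to 0.24 for BAK1 and -0.16 to -0.094 for BCL2A1, and for the 6 h difference 0.78 to 1.04 for BAK1, -0.67 to -0.52 for PMAIP1 and -0.21 to 0.074 for MCL1.

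Counts of features passing moved from 0. With RPS3 siRNA they were 2 with quantile normalization, 3 with the time point as a block, 149 with array weights, 3 without both 6 h arrays, 7 with single probes, and 0 to 2 with 1 array left out. For the difference they were 1 with quantile normalization, 2 with the block, 2 with weights and 1 without both 6 h arrays. Over all arrays they were 8 with quantile normalization, 18 with weights, 1 without both 6 h arrays and 20 with single probes. For the slope they were 1 with quantile normalization, 2177 with weights and 0 to 607 with 1 array left out. With p65 siRNA the count stayed 0. At an unadjusted p under 0.05 counts ran from 451 to 1476 with RPS3 siRNA (636 as reported), 202 to 750 with p65 siRNA (360), 143 to 451 for the difference (185), 604 to 1338 over all arrays (794) and 64 to 3239 for the slope (1700).

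The fit of 6 h against earlier arrays, and its alternatives, were chosen after seeing the data. Its 746 calls became 1487 with the ID series as a covariate, 462 with quantile normalization, 2955 with array weights and 12 to 752 with 1 array left out. BCL2A1 then passed with the ID series (-0.61), quantile normalization (-0.66), complete probes (-0.63) and weights (-0.53), and BIK with weights (0.50). PMAIP1 (-0.56) did not pass within the later ID series.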
